A study of Mus musculus with 84 samples.

Results

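The RGS (regulator of G-protein signalling) genes described here are 10 listed members of the family, Rgs2, Rgs4, Rgs6, Rgs7, Rgs8, Rgs10, Rgs12, Rgs14, Rgs17 and Rgs20, out of 55401 gene IDs in the count files. They were chosen by name and matched to their Ensembl IDs, and Rgs9 was left out of the set by that choice. Nuclei carrying the neuronal protein NeuN had been sorted from the frontal cortex of 12-week-old mice of strain 129S6/SvEvTac. No genotype other than this strain is given, so all groups share one background. One group had received vehicle, and the others had received 1 injection of DOI (2,5-dimethoxy-4-iodoamphetamine), a psychedelic that activates the 5-HT2A serotonin receptor, and were sampled 24 h, 48 h or 7 days later. RNA of 4 mice a group was measured, with 2 libraries a mouse summed, so that n = 4 mice in each group throughout. A vehicle mouse had 9151680 to 11517452 counts in total, a 24 h mouse 6441396 to 8090559, a 48 h mouse 5834248 to 7344355 and a 7-day mouse 6972577 to 12354785. Levels are in CPM, counts scaled to a common total with TMM factors, or in CPM per kb of exon where so named. Unless another test is named, adjusted p-values come from the quasi-likelihood test of edgeR, adjusted by the Benjamini-Hochberg method over 17941 genes.

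RGS proteins speed the hydrolysis of GTP by the alpha subunit of a heterotrimeric G protein, which ends the signal of a receptor sooner. The 5-HT2A receptor signals mainly through G proteins of the Gq class, and many other receptors of cortical neurons signal through the Gi and Go classes. The members fall into subfamilies by sequence and by the domains they carry beside the RGS domain. Rgs2, Rgs4 and Rgs8 are small R4 proteins, of which Rgs2 is known for its preference for Gq and Rgs4 for acting on both Gq and Gi. Rgs6 and Rgs7 belong to R7 and work as stable dimers with the G beta subunit encoded by Gnb5. Rgs10, Rgs12 and Rgs14 are placed in R12 and act on Gi and Go, and Rgs17 and Rgs20 are RZ members known for acting on Gz and Gi.

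The start-site sequences of 3 members are printed because these genes stand for the 3 patterns found: Rgs4 fell, Rgs17 rose, and Rgs2, an R4 gene on the same chromosome as Rgs4, was not called in any comparison. Each is the 250 bases before the RefSeq start on the strand of the gene (build GRCm38.p6), 5′ to 3′, at chr1:169747643-169747892 for Rgs4, chr1:144004150-144004399 for Rgs2 and chr10:5922401-5922650 for Rgs17, all on the minus strand. Capitals mark the motifs named in the text that follows them.
Rgs4: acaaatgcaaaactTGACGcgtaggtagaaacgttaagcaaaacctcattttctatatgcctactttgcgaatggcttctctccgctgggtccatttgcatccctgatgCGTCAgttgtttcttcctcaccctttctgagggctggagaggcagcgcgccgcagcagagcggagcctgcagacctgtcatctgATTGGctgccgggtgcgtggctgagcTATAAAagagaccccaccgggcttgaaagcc
Rgs2: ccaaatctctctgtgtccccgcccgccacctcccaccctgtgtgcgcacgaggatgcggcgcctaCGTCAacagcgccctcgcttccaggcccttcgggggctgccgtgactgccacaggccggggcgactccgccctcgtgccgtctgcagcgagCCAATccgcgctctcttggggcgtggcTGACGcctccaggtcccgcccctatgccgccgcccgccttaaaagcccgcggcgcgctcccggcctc
Rgs17: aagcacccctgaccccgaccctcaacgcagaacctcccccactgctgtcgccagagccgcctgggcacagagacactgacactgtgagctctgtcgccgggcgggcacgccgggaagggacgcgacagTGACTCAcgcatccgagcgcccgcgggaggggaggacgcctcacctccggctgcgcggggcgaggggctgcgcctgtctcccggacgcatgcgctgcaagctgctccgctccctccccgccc

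Motifs searched on both strands were the cyclic AMP response element TGACGTCA, its core TGACG (part of the full element), the AP-1 motif TGANTCA, the EGR motif GCGTGGGCG, the TATA box TATAAA and the CCAAT box CCAAT. The Rgs4 window held a TATA box that begins 31 bases before the start, a CCAAT box on the other strand and the core TGACG 2 times. The Rgs2 window also held TGACG 2 times and a CCAAT box, and no TATAAA. The Rgs17 window held an AP-1 motif 122 bases before the start and none of the other motifs. Over all 32851 windows of the same length in the RefSeq table, 12.4% held TATAAA, 33.8% CCAAT, 17.8% TGACG and 6.75% TGANTCA, while the full element TGACGTCA (1.55%) and the EGR motif (0.536%) were in none of the 3 windows shown. G and C made up 53.6% of the Rgs4 window and 72.4% of each of the others, against a median of 52.4%. The Rgs4 window had 13 CpG dinucleotides, that of Rgs2 30 and that of Rgs17 27, against a median of 6. RefSeq windows were matched for 8 of the 10 members. Among those not printed, a window of Rgs12 held the AP-1 motif and TGACG, and windows of Rgs8 held TGACG and CCAAT, though neither gene was called. The windows of Rgs7, which fell, and of Rgs6 and Rgs10, which were not called, held none of the motifs. No binding or chromatin data on any window were used here, so these matches describe the sequence alone.

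In vehicle mice the 10 genes spanned more than 2 orders of magnitude per length of exon. Rgs4 was the highest at 385 ± 39.3 CPM per kb (SD, n = 4), followed by Rgs7 at 39.8 ± 4.16 and Rgs2 at 20.1 ± 2.64. Rgs14 came next at 14.8 ± 2.67, and its range over mice (12.9 to 18.6) overlapped that of Rgs2 (18.1 to 23.9). Rgs17 stood at 9.51 ± 0.301 CPM per kb and overlapped neither Rgs14 nor Rgs10. Rgs10 at 7.03 ± 1.29 and Rgs8 at 6.55 ± 0.361 overlapped each other, as did Rgs6 at 4.93 ± 0.316 and Rgs12 at 4.28 ± 0.723. Rgs20 was the lowest at 1.35 ± 0.628 CPM per kb. At 48 h after DOI the order differed: Rgs4 was still the highest at 119 ± 24.3 CPM per kb, but Rgs2 (19.6 ± 4.11) and Rgs17 (17.8 ± 1.34) now had higher means than Rgs7 (15.0 ± 1.66), and Rgs2, at 13.9 to 22.6 CPM per kb, overlapped both of them, as the last 2 did each other.

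**Figure D1:**
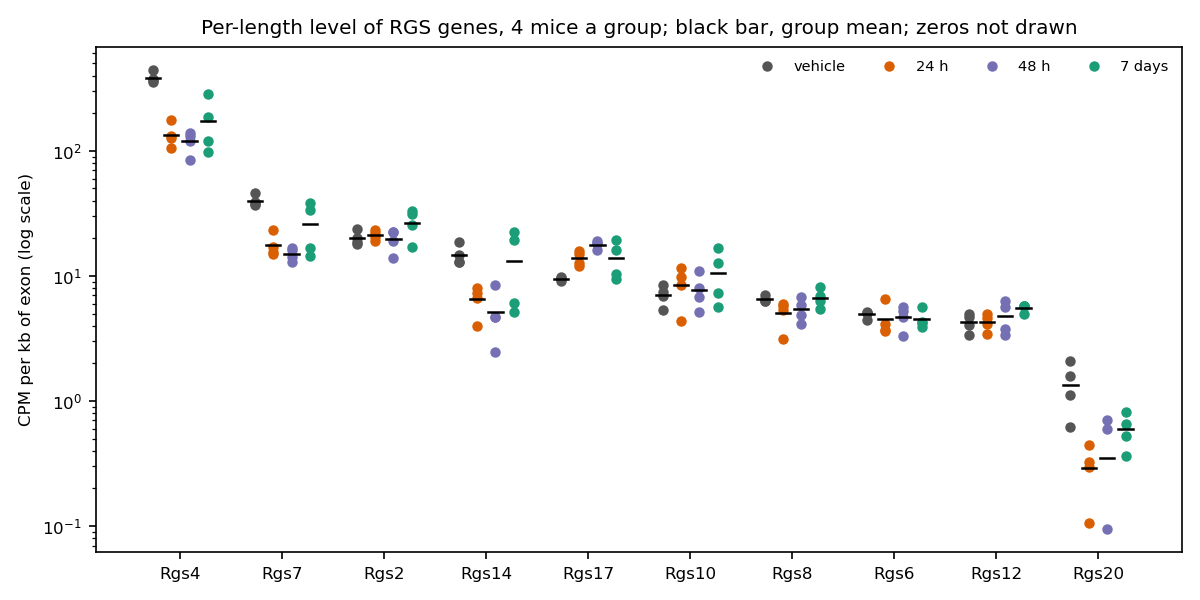
Level of each RGS gene per kb of exon on a log axis, ordered by the vehicle mean, with 1 point per mouse and a black bar at the group mean; the mouse of Rgs20 with no counts at 48 h is not drawn. Rgs4 lies above the others in every group, and the mean of Rgs17 lies below that of Rgs7 in vehicle mice and above it at 48 h, where the ranges of these genes overlap.

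Some features of the libraries moved with the groups and bear on every comparison below. One annotated gene, CT010467.1, took 0.00694% to 0.0101% of the counts of a vehicle mouse but 0.328% to 1.57% at 24 h and 0.523% to 1.66% at 48 h. At 7 days it took 0.00834% and 0.00607% in mice 1 and 3, and 0.633% and 0.474% in mice 2 and 4. Since its share did not overlap between vehicle and the 24 h or 48 h mice, it cannot be told apart from treatment there. With this share as a covariate 0 of the 10 members and 0% of all genes were called against vehicle at any time, while an unadjusted p under 0.05 was reached by 2 members in the 24 h contrast (18.9% of all genes), 2 in that of 48 h (15.7%) and 4 in that of 7 days (13.7%). The mitochondrial share of the counts also moved with the groups, at 0.017% to 0.070% of a vehicle mouse, 0.062% to 0.101% of a 24 h mouse and 0.108% to 0.268% of a 48 h mouse, where it did not overlap vehicle. At 7 days it was 0.041%, 0.130%, 0.021% and 0.114% in mice 1 to 4, higher in mice 2 and 4, and its part in the results was not tested. The totals of the vehicle mice also lay above those of all 24 h and 48 h mice. After thinning every mouse to 5834248 counts, 4 members were called at 24 h (24.7% of all genes) and 4 at 48 h (30.5%).

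Against vehicle, 5 of the 10 RGS genes differed at 24 h (1 higher and 4 lower) and the same 5 at 48 h (1 higher and 4 lower). Rgs4, Rgs7, Rgs14 and Rgs20 fell and Rgs17 rose, while Rgs2, Rgs6, Rgs8, Rgs10 and Rgs12 were not called. When any 1 mouse of the groups compared was left out, the count at 24 h was 2 or 3 (13.9% to 21.2% of all genes), and that at 48 h 4 or 5 (19.0% to 26.4%). Among all 17941 genes tested, 24.2% were called at 24 h (13.8% higher and 10.4% lower) and 30.1% at 48 h (16.8% higher and 13.3% lower). The median log2 fold change of the 10 members was -0.25 at 24 h and -0.17 at 48 h, beside 0.03 and 0.02 over all genes. The treated and vehicle mice did not overlap for 6 of the 10 at 24 h and for 4 at 48 h, beside 35.7% and 38.1% of all genes. When counts were scaled by their totals alone, which moved the median of all genes to 0.14 at 24 h and 0.12 at 48 h, the members called were 1 higher and 3 lower at each time, beside 23.9% of all genes at 24 h and 29.5% at 48 h. With that scaling 67.3% of all calls at 24 h were higher instead of 57.0%, and 64.2% of those at 48 h instead of 55.8%. The test of any difference among the 4 groups called Rgs4, Rgs7, Rgs14 and Rgs17 (adjusted p = 0.00306, 0.00547, 0.0284 and 0.0235 by edgeR), beside 18.8% of all genes.

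**Figure D2:**
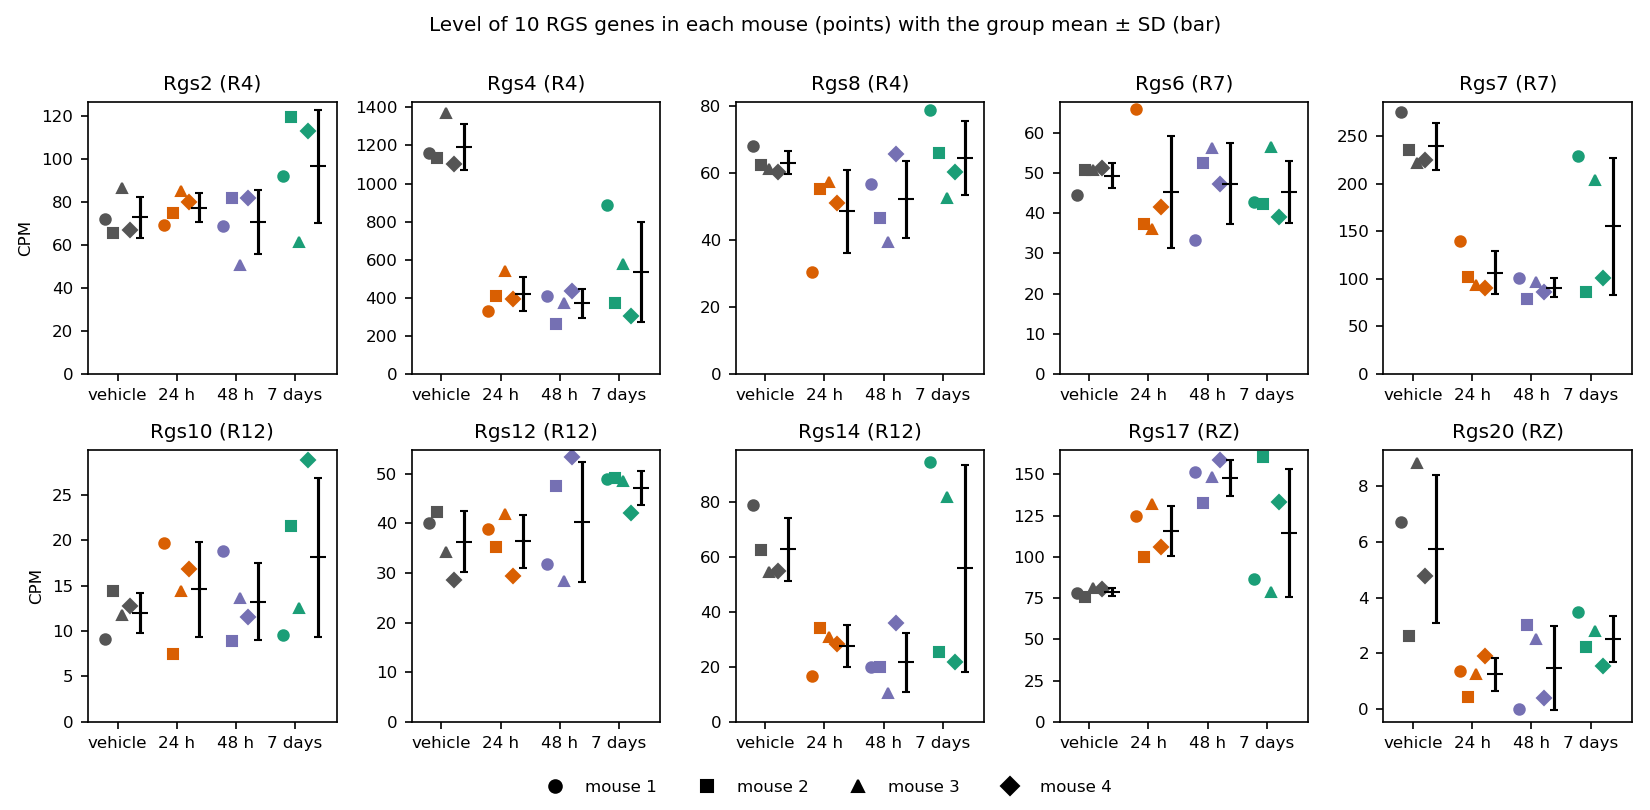
CPM of each RGS gene in each mouse (points, shape by mouse number) with the group mean ± SD beside them, for vehicle and for 24 h, 48 h and 7 days after DOI. For Rgs4 all 12 treated mice lie below all 4 vehicle mice, and for Rgs7, Rgs14 and Rgs17 the 7-day mice 2 and 4 lie apart from mice 1 and 3.

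Rgs4 (ENSMUSG00000038530; chromosome 1, 169741477 to 169747642, minus strand) was the most abundant member and had the smallest p of the 10. Its level was 1158, 1136, 1372 and 1104 CPM in the vehicle mice, 329, 409, 543 and 391 CPM at 24 h, and 409, 263, 373 and 433 CPM at 48 h. The highest treated mouse at these times thus had less than the lowest vehicle mouse by a wide margin. As fitted, Rgs4 was at 0.350 times its vehicle level at 24 h (95% interval 0.236 to 0.521, adjusted p = 0.00273 by edgeR) and 0.310 times at 48 h (0.208 to 0.462, adjusted p = 0.00158 by edgeR). Leaving out any 1 of the vehicle or treated mice kept both calls. Fitted with the CT010467.1 share, Rgs4 changed by -1.45 and -1.61 log2 units in place of -1.51 and -1.69, with adjusted p of 0.121 and 0.193.

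The other R4 members, Rgs2 and Rgs8, were not called. Rgs2 (ENSMUSG00000026360; chromosome 1, 143999338 to 144004161), known as an early-response gene in neurons, had 72.3, 65.6, 86.7 and 67.3 CPM in vehicle mice, 69.5, 74.9, 85.2 and 80.0 CPM at 24 h and 69.1, 82.0, 50.5 and 82.0 CPM at 48 h. These ranges overlapped, and the log2 fold change was 0.08 (95% interval -0.35 to 0.52) at 24 h and -0.04 (-0.47 to 0.39) at 48 h. Rgs8 (ENSMUSG00000042671; chromosome 1, 153653025 to 153700323) had 60.4 to 68.2 CPM in vehicle mice and 30.3, 55.2, 57.4 and 51.1 CPM at 24 h, so that all 4 treated mice were below all vehicle mice. This difference did not pass the test (log2 fold change -0.38, 95% interval -0.82 to 0.06, adjusted p = 0.193 by edgeR), and at 48 h Rgs8 ranged from 39.4 to 65.8 CPM (log2 fold change -0.27, 95% interval -0.71 to 0.17).

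Of the R7 members Rgs7 fell and Rgs6 was not called. Rgs7 (ENSMUSG00000026527; chromosome 1, 175059087 to 175492500, minus strand), an abundant neuronal regulator of Go signalling, had 276, 235, 221 and 225 CPM in vehicle mice. It had 139, 102, 93.7 and 90.1 CPM at 24 h and 100, 78.3, 96.3 and 86.0 CPM at 48 h, below every vehicle mouse. The level was 0.444 times that of vehicle at 24 h (95% interval 0.305 to 0.646, adjusted p = 0.00547 by edgeR) and 0.377 times at 48 h (0.259 to 0.550, adjusted p = 0.00201 by edgeR), and both calls held when any 1 mouse was left out. Fitted with the CT010467.1 share, Rgs7 changed by -0.73 log2 units in place of -1.17 at 24 h and by -0.83 in place of -1.41 at 48 h, with adjusted p of 0.277 and 0.346. Rgs6 (ENSMUSG00000021219; chromosome 12, 82588292 to 83162056) had 44.7 to 51.4 CPM in vehicle mice, 36.1 to 66.0 CPM at 24 h and 33.3 to 56.3 CPM at 48 h. Its log2 fold change was -0.13 (95% interval -0.58 to 0.32) and -0.06 (-0.51 to 0.39) at these times.

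In R12 the called gene was Rgs14 (ENSMUSG00000052087; chromosome 13, 55369732 to 55384687), a scaffold that also binds small GTPases and is known from hippocampal area CA2. It had 78.9, 62.7, 54.8 and 55.0 CPM in vehicle mice, 16.8, 34.2, 30.9 and 28.3 CPM at 24 h and 19.8, 20.1, 10.5 and 36.2 CPM at 48 h. No treated mouse of these times reached the vehicle range. The log2 fold change was -1.19 ± 0.42 (SE) at 24 h (adjusted p = 0.0447 by edgeR) and -1.53 ± 0.42 at 48 h (adjusted p = 0.0127 by edgeR). The 24 h call was lost when any 1 of the 8 mice compared was left out (adjusted p = 0.0577 to 0.120), and the 48 h call was kept (adjusted p = 0.00886 to 0.0428). Fitted with the CT010467.1 share, the log2 fold changes were -0.80 and -1.11 (adjusted p = 0.543 and 0.474). Rgs10 (ENSMUSG00000030844; chromosome 7, 128373621 to 128418758), best known from microglia but also found in neurons, had 9.16 to 14.4 CPM in vehicle mice, 7.44 to 19.6 CPM at 24 h and 8.87 to 18.8 CPM at 48 h. Rgs12 (ENSMUSG00000029101; chromosome 5, 34949445 to 35039644), a large multidomain protein, had 28.6 to 42.3 CPM, 29.4 to 42.0 CPM and 28.5 to 53.4 CPM in the same groups. Their groups overlapped at both times, and the 95% intervals of the log2 fold change were -0.46 to 1.02 and -0.60 to 0.88 for Rgs10 and -0.44 to 0.45 and -0.29 to 0.59 for Rgs12.

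The RZ members, Rgs17 and Rgs20, moved in opposite directions. Rgs17 (ENSMUSG00000019775; chromosome 10, 5825663 to 5922400, minus strand) had 78.4, 75.6, 81.2 and 80.4 CPM in vehicle mice, the narrowest spread of the 10 genes relative to its mean. It had 125, 99.7, 132 and 106 CPM at 24 h and 152, 133, 148 and 159 CPM at 48 h, above every vehicle mouse. The level was 1.46 times that of vehicle at 24 h (95% interval 1.10 to 1.95, adjusted p = 0.0498 by edgeR) and 1.87 times at 48 h (1.40 to 2.50, adjusted p = 0.00426 by edgeR). The 24 h value lay at the threshold and was lost when any 1 of the 8 mice compared was left out (adjusted p = 0.0584 to 0.123), while the 48 h call was kept in every such fit. Fitted with the CT010467.1 share, they were 0.37 and 0.67 log2 units (adjusted p = 0.458 and 0.302), beside 0.55 and 0.91 without it.

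Rgs20 (ENSMUSG00000002459; chromosome 1, 4909576 to 5070285, minus strand) was the least counted member, with 71, 23, 90 and 49 reads in vehicle mice, 9, 3, 10 and 16 reads at 24 h and 0, 18, 17 and 3 reads at 48 h. As CPM this was 2.62 to 8.84, 0.446 to 1.89 and 0 to 3.01, where 3 reads, the limit that a count of 0 allows, were worth 0.254 to 0.502 CPM over the mice. The 24 h mice lay below the vehicle mice, and the 48 h mice overlapped them. The log2 fold change was -2.18 ± 0.74 (SE) at 24 h (adjusted p = 0.0387 by edgeR) and -1.96 ± 0.73 at 48 h (adjusted p = 0.0499 by edgeR). Without 1 mouse the adjusted p ran from 0.0446 to 0.102 at 24 h, where the call was kept only without vehicle mouse 2, and from 0.0386 to 0.131 at 48 h, where it was kept only without 48 h mouse 2. Fitted with the CT010467.1 share, Rgs20 changed by -1.29 and -1.06 log2 units (adjusted p = 0.531 and 0.649). Rgs20 shares 127 exon bases with Atp6v1h on the other strand, and 125 with the pseudogene Gm17101. Atp6v1h encodes a subunit of the vacuolar proton pump and was itself lower at 48 h (log2 fold change -0.61, adjusted p = 0.0286 by edgeR).

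**Figure D3:**
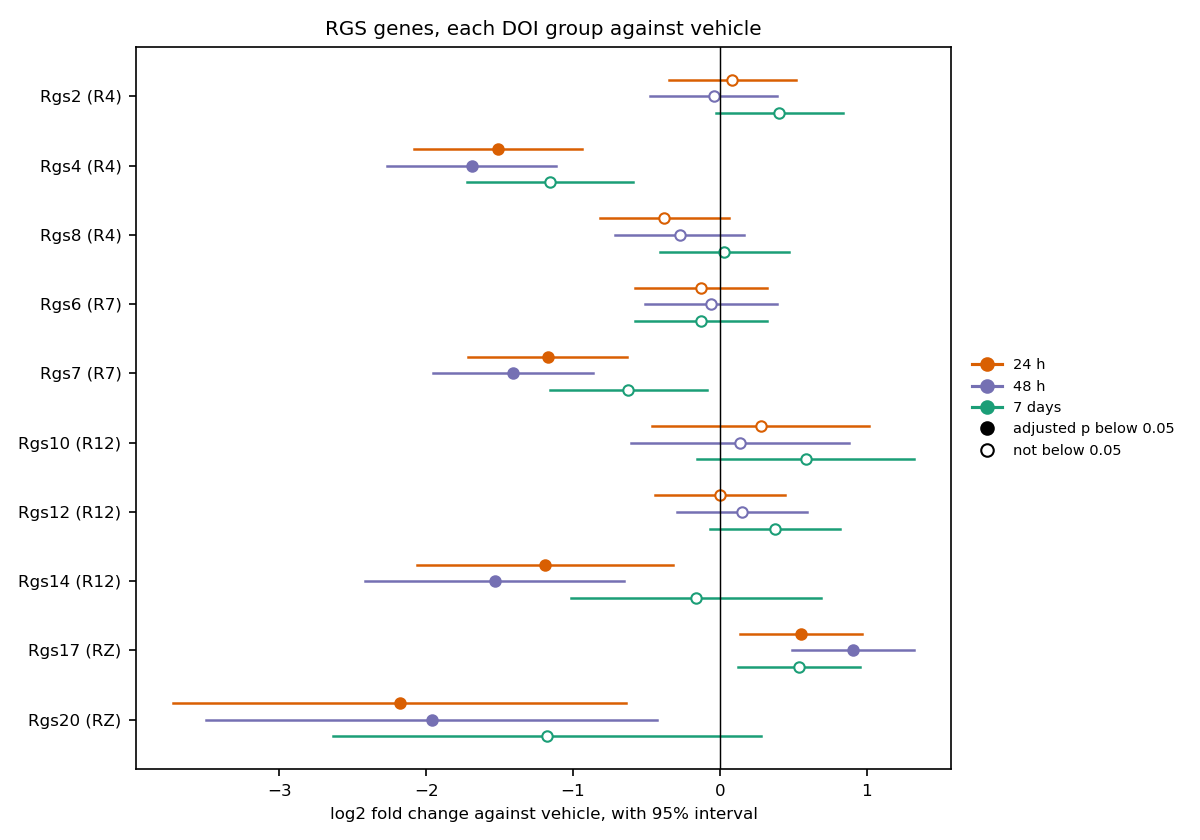
Log2 fold change of each RGS gene against vehicle at 24 h, 48 h and 7 days with 95% intervals from edgeR (horizontal axis, log2 units); filled points passed the adjusted p threshold of 0.05. The 24 h and 48 h points of Rgs4, Rgs7, Rgs14 and Rgs20 lie left of 0 and those of Rgs17 right of it, with no filled point at 7 days.

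Between 48 h and 24 h none of the 10 members was called, and 0% of all genes were; 0 members and 338 genes had an unadjusted p under 0.05. Rgs17 had a higher level in each 48 h mouse than in any 24 h mouse (log2 difference 0.36, 95% interval -0.06 to 0.77), and the other 9 genes overlapped, beside 1.96% of all genes whose groups did not.

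At 7 days 0 of the 10 members and 0% of all genes were called against vehicle by edgeR, while 3 members and 3012 genes had an unadjusted p under 0.05. DESeq2 called 1 member and 4.44% of all genes. The treated and vehicle mice did not overlap for 1 of the 10, Rgs4, beside 5.85% of all genes. Rgs4 had 888, 372, 575 and 305 CPM in 7-day mice 1 to 4, all below the lowest vehicle mouse at 1104 CPM (log2 fold change -1.16, 95% interval -1.72 to -0.59, adjusted p = 0.0960 by edgeR). DESeq2 gave an adjusted p of 0.00542 for Rgs4. The edgeR call appeared when 7-day mouse 1 or mouse 3 was left out (adjusted p = 0.00504 and 0.0282) and not when any other mouse of these 2 groups was, where it was 0.192 to 0.380.

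For the other called genes the 7-day mice spread widely. Rgs7 had 229 and 204 CPM in mice 1 and 3 but 86.3 and 101 CPM in mice 2 and 4. Rgs14 had 94.8 and 82.1 CPM in mice 1 and 3 and 25.5 and 22.0 CPM in mice 2 and 4. Rgs17 had 86.4 and 78.6 CPM in mice 1 and 3 and 160 and 133 CPM in mice 2 and 4. For each of these 3 genes mice 2 and 4 thus lay within or near the range of the 24 h and 48 h mice while mice 1 and 3 lay near the vehicle mice (for Rgs14, above them), and mice 2 and 4 were also the 7-day mice with the high CT010467.1 share. The log2 fold changes at 7 days were -0.62 for Rgs7 (adjusted p = 0.226), -0.16 for Rgs14 (adjusted p = 0.869) and 0.54 for Rgs17 (adjusted p = 0.186), all by edgeR. Rgs20 had 41, 20, 24 and 11 reads, Rgs2 had 92.1, 120, 61.5 and 113 CPM, and Rgs8, Rgs6, Rgs10 and Rgs12 ranged over 52.7 to 78.8, 39.0 to 56.5, 9.57 to 28.8 and 42.1 to 49.1 CPM. None of these differed from vehicle beyond the test, and no member was called between 7 days and 48 h (0% of all genes, 3 members and 2959 genes at an unadjusted p under 0.05, 1 member and 3.15% of all genes by DESeq2) or between 7 days and 24 h (0.00557% of all genes, 2 members and 2555 genes at an unadjusted p under 0.05).

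Ratios of 2 genes within a mouse do not depend on how libraries are scaled, and they were compared for all 8 pairs within a subfamily in each DOI group against vehicle, chosen after the levels were known. In 13 of the 24 exact permutation tests (two-sided, 4 against 4 mice) p was 0.0286, the smallest that this design can give. After adjustment over the 24 tests the smallest was 0.0528, so that none passed. From library 1 of each mouse alone 14 passed and from library 2 alone 0 did. Tests at the smallest possible p share the same adjusted value, so they pass or fail together. The 14 against 0 thus turns on how many tests reached that p and does not measure a difference in the ratios. Within R4 the log2 ratio of Rgs2 over Rgs4 averaged -4.03 ± 0.057 (SD, n = 4) in the vehicle group, against -2.41 ± 0.193 for 24 h, -2.38 ± 0.509 for 48 h and -2.39 ± 0.994 for 7 days. All 12 treated mice lay above all vehicle mice. In this ratio 7-day mice 1 and 3 were at -3.27 and -3.22, between the vehicle mice and the other treated mice, and mice 2 and 4 at -1.64 and -1.43. Rgs4 over Rgs8 was lower by 1.11 ± 0.156 (SE), 1.41 ± 0.179 and 1.29 ± 0.318 log2 units at 24 h, 48 h and 7 days, without overlap at any time.

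Within R7 the log2 ratio of Rgs6 over Rgs7 was higher by 1.02 ± 0.151 (SE) at 24 h and 1.32 ± 0.251 at 48 h with no overlap, and by 0.61 ± 0.326 at 7 days with overlap (exact permutation p = 0.143). Within R12 that of Rgs12 over Rgs14 was higher by 1.23 ± 0.292 at 24 h and 1.77 ± 0.234 at 48 h with no overlap. The pair Rgs10 and Rgs12, neither of which was called, differed by 0.20 ± 0.378 and -0.01 ± 0.457 at these times. At 7 days Rgs12 over Rgs14 was higher by 0.83 ± 0.529 with overlap (exact permutation p = 0.314). Rgs10 over Rgs14 was higher by 1.75 ± 0.526 at 48 h with no overlap, and by 1.43 ± 0.554 at 24 h and 0.92 ± 0.938 at 7 days with overlap (exact permutation p = 0.0857 and 0.400). In RZ, Rgs17 over Rgs20 was higher by 2.70 ± 0.517 at 24 h, without overlap, by 3.77 ± 1.35 at 48 h, a value that depends on the 0.5 added to each count because 1 mouse had no Rgs20 read, and by 1.57 ± 0.574 at 7 days, with overlap (exact permutation p = 0.0857). In R4, Rgs2 over Rgs8 overlapped vehicle at all 3 times, with differences of 0.51 ± 0.195, 0.24 ± 0.160 and 0.35 ± 0.216 (exact permutation p = 0.0571, 0.171 and 0.171).

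**Figure D4:**
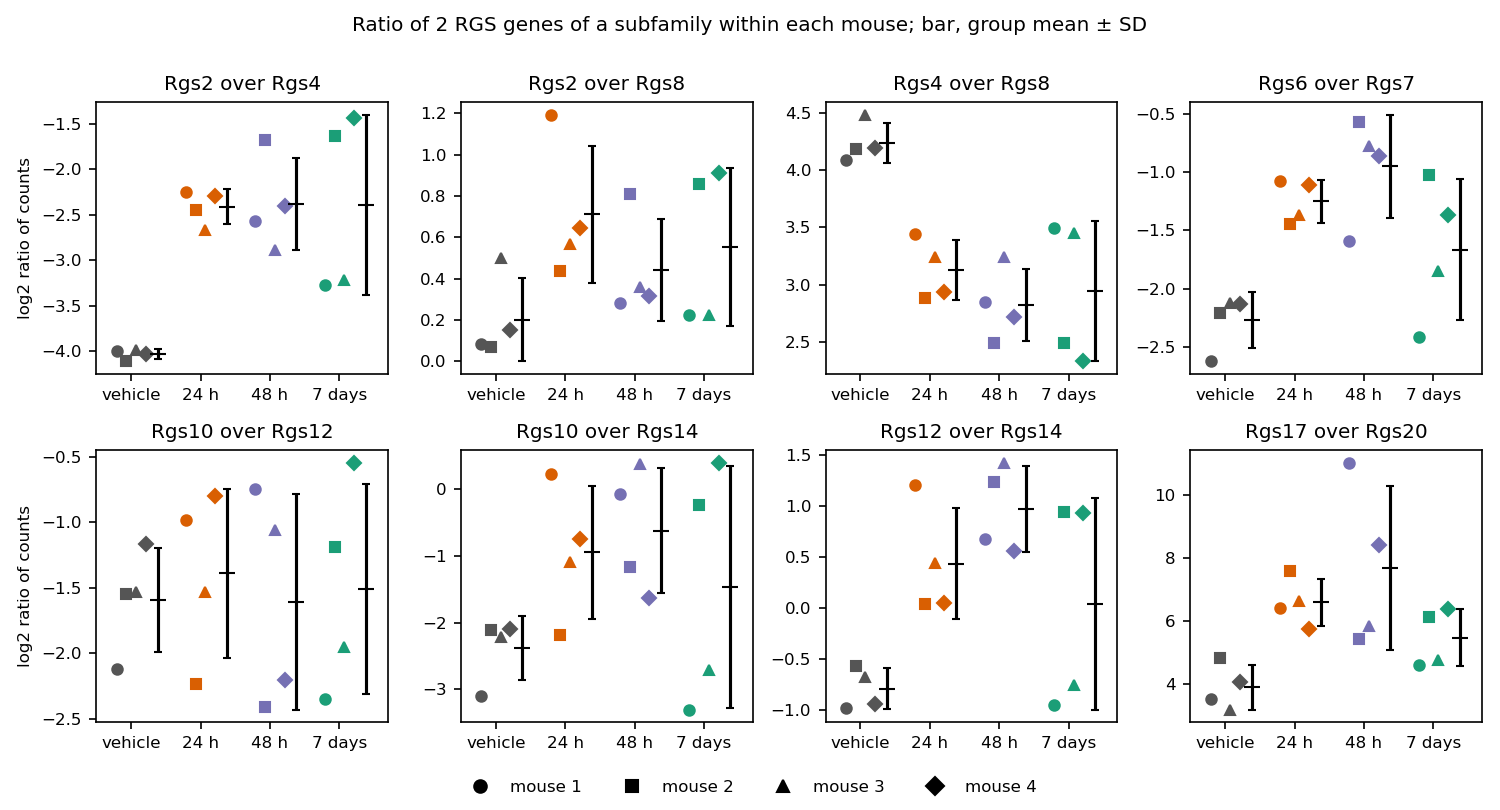
Log2 ratio of the counts of 2 RGS genes of a subfamily in each mouse (points, shape by mouse number) with the group mean ± SD beside them, after adding 0.5 to each count. Rgs2 over Rgs4 is tight in vehicle mice and higher in all 12 treated mice; the highest 48 h point of Rgs17 over Rgs20 has no Rgs20 read, so its height depends on the 0.5 added.

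Of the 11 other family members with symbols from Rgs1 to Rgs22, 5 had enough counts to be tested, 1 was called at 24 h (lower) and 2 at 48 h (1 higher and 1 lower), beside 24.2% and 30.1% of all genes. Rgs11, an R7 gene related to Rgs7, had 512, 612, 625 and 614 CPM in vehicle mice and fell at 24 h to 225, 386, 364 and 321 CPM (log2 fold change -0.87, adjusted p = 0.0476 by edgeR) and at 48 h to 325, 367, 208 and 404 CPM (-0.86, adjusted p = 0.0427 by edgeR). It thus moved in the same direction as Rgs7. Rgs9, the R7 gene of striatal neurons, had 4.78 to 8.25 CPM in vehicle mice and 9.85, 40.7, 14.5 and 25.1 CPM at 48 h (log2 fold change 1.77, adjusted p = 0.0414 by edgeR), and at 7 days 18.6, 127, 8.99 and 126 CPM. Rgs5 lies 45.7 kb from Rgs4 and had 1.96 to 3.53 CPM in vehicle mice, 7.92, 4.61, 2.79 and 11.5 CPM at 24 h and 9.42, 5.36, 3.85 and 2.92 CPM at 48 h. Its log2 fold change was 1.39 and 1.08, and it was not called (adjusted p = 0.120 and 0.211 by edgeR). Rgs16, 40.0 kb from Rgs8, stayed at or below 0.380 CPM in every mouse. Rgs19 had 31.5 to 36.9 CPM in vehicle mice, 29.1 to 33.5 CPM at 24 h and 21.2 to 35.2 CPM at 48 h. It was not called at either time.

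The proteins that the R7 genes work with, the G alpha subunits and other regulators of these subunits were followed as fixed lists. The alpha subunit list was not limited to the Gq, Gi, Go and Gz classes named above. Of 5 R7 partners 3 were tested and 0 were called at 24 h or 48 h, with 2 and 1 at an unadjusted p under 0.05, which 38.4% and 42.9% of all genes reached. Gnb5, the obligate partner of Rgs7, had a log2 fold change of -0.12 at each of these times, and Gpr158, the membrane receptor that anchors Rgs7, had -0.46 (adjusted p = 0.0633 by edgeR) and -0.10. Rgs7bp, which encodes a protein that holds R7 dimers at the membrane, had 176 to 204 CPM in vehicle mice, 212 to 350 CPM at 24 h and 243 to 293 CPM at 48 h. All treated mice of these times were above all vehicle mice, but the log2 fold change of 0.46 at each time was not called (adjusted p = 0.125 and 0.116 by edgeR). All 13 alpha subunit genes were tested and 3 were called at each of 24 h and 48 h (2 higher and 1 lower), a share no higher than the 24.2% and 30.1% of all genes called, with a median log2 fold change of 0.18 and 0.08. Gnao1, which encodes the Go subunit abundant in brain, had 39.1, 43.7, 51.1 and 43.7 CPM in vehicle mice, 103, 108, 105 and 120 CPM at 24 h and 126, 103, 119 and 122 CPM at 48 h. It rose by 1.29 and 1.41 log2 units (adjusted p = 0.00308 and 0.00173 by edgeR). At 7 days Gnao1 had 58.5 and 37.1 CPM in mice 1 and 3 and 103 and 104 CPM in mice 2 and 4, the same sides as Rgs17.

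Gnai2, an inhibitory alpha subunit, rose at 24 h and 48 h (log2 fold change 0.74 and 0.82, adjusted p = 0.0474 and 0.0266 by edgeR). Its relative Gnai3 fell at 48 h (-0.97, adjusted p = 0.0163), and Gna13, another alpha subunit gene, fell at 24 h (-0.62, adjusted p = 0.0460). Gnaq, the subunit that couples the 5-HT2A receptor to phospholipase C, was not called, with 0.18 at 24 h and 0.37 at 48 h. Of 6 other regulators of alpha subunits 5 were tested, 0 were called at 24 h and 1 at 48 h, beside 24.2% and 30.1% of all genes, and 1 and 3 had an unadjusted p under 0.05, beside 38.4% and 42.9%. The gene called was Gpsm2, which encodes a protein that binds alpha subunits in their GDP form and fell (-1.08, adjusted p = 0.0226 by edgeR). From these lists and the other RGS genes 0 were called at 7 days by edgeR (5 at an unadjusted p under 0.05, which 16.8% of all genes reached).

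**Figure D5:**
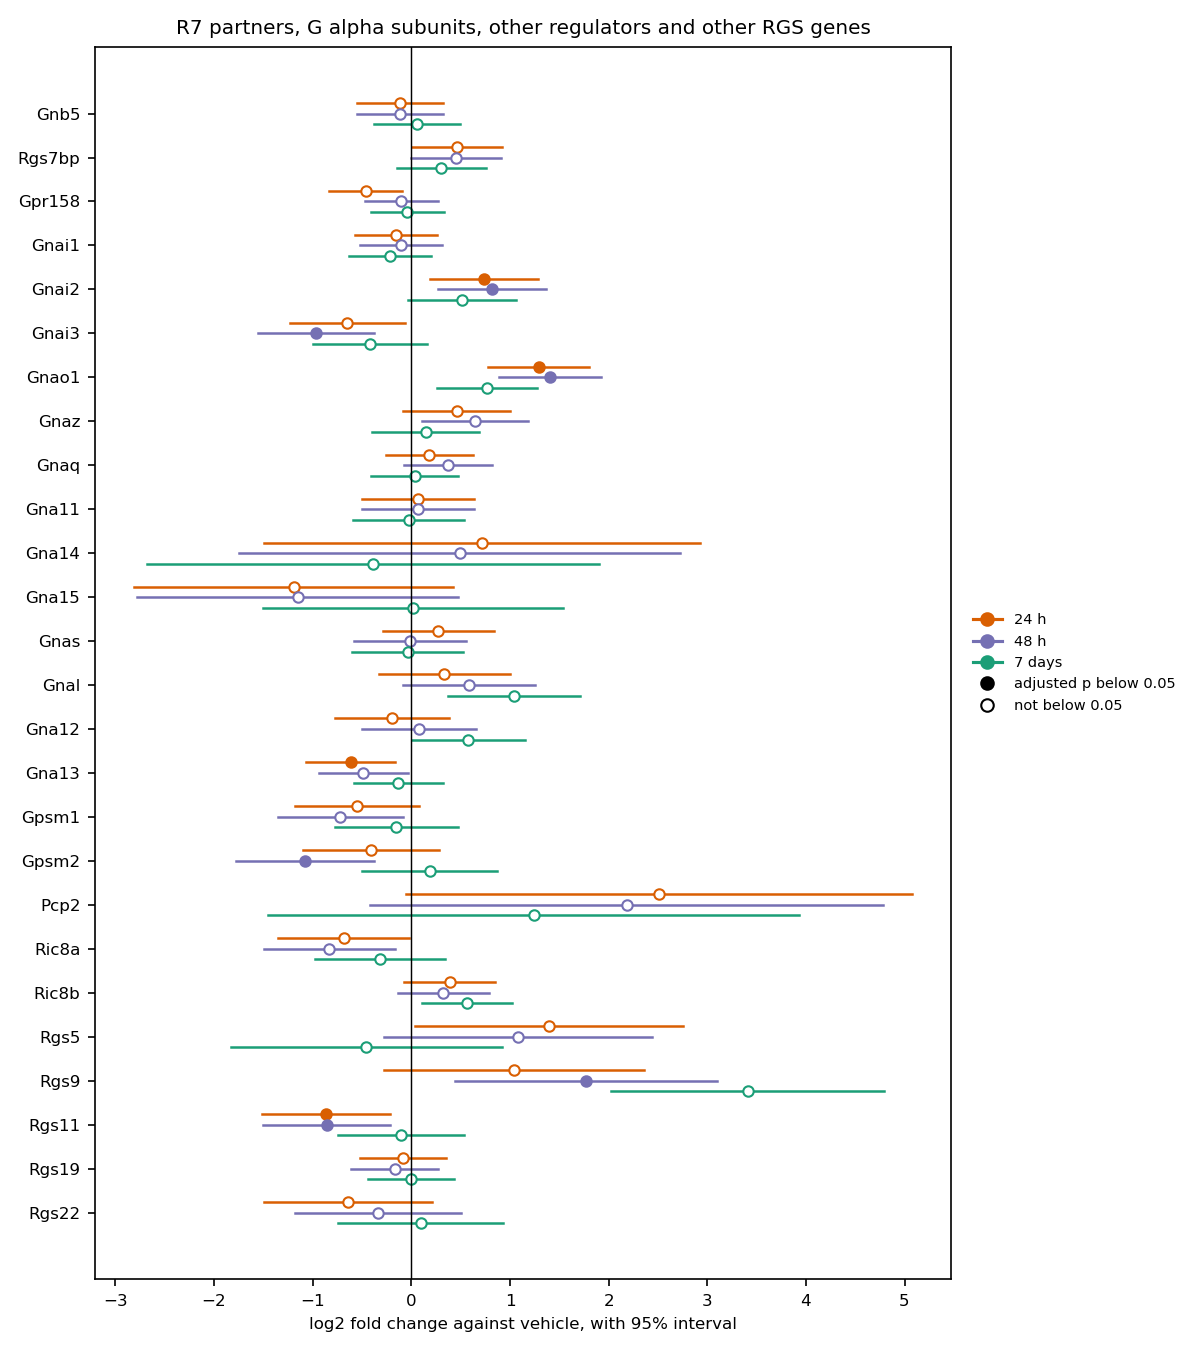
Log2 fold change against vehicle with 95% intervals from edgeR at 24 h, 48 h and 7 days for the tested R7 partners (top 3), alpha subunits, other regulators and other RGS genes (bottom 5); filled points passed the adjusted p threshold of 0.05. Gnao1 and Gnai2 lie right of 0 and Rgs11 left of it at 24 h and 48 h.

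The sorted nuclei carried neuronal markers in every mouse, where 4 markers summed to 5181 to 5648 CPM in the vehicle group, 3842 to 5542 CPM in the 24 h group, 3580 to 5443 CPM in the 48 h group and 4041 to 5487 CPM in the 7-day group. Of these, 2 were called at 24 h (1 higher, 1 lower) and 3 at 48 h (2 higher, 1 lower), and Rbfox3, the gene of NeuN, was higher at both. These counts and those of the marker lists that follow stand beside 24.2% of all genes called at 24 h and 30.1% at 48 h. The sum of 5 excitatory markers was 439 to 499 CPM in vehicle mice, 894 to 2356 at 24 h and 1401 to 2137 at 48 h, where 2 of 5 were higher, among them Camk2a (log2 fold change 2.96 at both), while the vesicular glutamate transporter gene Slc17a7 was not called (-0.80 and -0.77). Camk2a carried this sum, with a mean of 180 CPM in the vehicle group, 1405 CPM in that of 24 h and 1397 CPM in that of 48 h, and 3 of the 5 markers had negative log2 fold changes at both times. Without Camk2a the other 4 markers summed to 260 to 314 CPM in vehicle mice, 230 to 285 in the 24 h group, 221 to 276 in the 48 h group and 172 to 321 in the 7-day group. At 7 days the sum of all 5 was 449, 1349, 411 and 1208 CPM in mice 1 to 4, highest in mice 2 and 4. The sum of 6 inhibitory markers overlapped between vehicle mice (1371 to 2742 CPM) and those of 24 h (1706 to 2457 CPM) and 48 h (1755 to 2697 CPM), and 3 of them were called at 24 h (1 higher, 2 lower) and 2 at 48 h (1 higher, 1 lower). Microglial markers summed to 68.6 to 106 CPM in vehicle mice, 40.0 to 83.8 in those of 24 h, 44.5 to 74.0 in those of 48 h and 49.0 to 121 in those of 7 days, and all 4 tested had negative log2 fold changes at the first 2 times (median -0.60 and -0.68). Oligodendrocyte markers summed to 147 to 325 CPM in the vehicle group, 148 to 227 in the 24 h group, 174 to 228 in the 48 h group and 195 to 341 in the 7-day group, with 4 of 5 negative at both early times (median -0.70 and -0.64). Astrocyte markers summed to 119 to 157, 81.7 to 189, 68.6 to 198 and 62.8 to 189 CPM in these groups, and endothelial and mural markers to 8.08 to 9.73, 5.95 to 11.2, 5.52 to 13.3 and 4.76 to 8.99 CPM. Of these 4 lists 1 gene was called at 24 h, Mbp, which was lower (adjusted p = 0.0367 by edgeR), and 0 at 48 h by edgeR (3 at an unadjusted p under 0.05, beside 42.9% of all genes). The endothelial marker Cldn5 was at 0 in all vehicle mice. The sum of 8 striatal markers was 373 to 458 CPM in vehicle mice, 291 to 350 at 24 h with 2 of 7 tested lower, and 372 to 699 at 48 h. At 7 days it was 705, 1952, 450 and 1422 CPM in mice 1 to 4, highest in mice 2 and 4, where Rgs9 was also highest. All 7 tested had positive log2 fold changes at 7 days against vehicle (median 1.59). Of these 0 were called and 6 had an unadjusted p under 0.05, beside 16.8% of all genes. The test of any difference among the 4 groups called 6 of the 7, beside 18.8% of all genes. The part of these markers in the RGS results was not tested, and in sorted pools fewer cells of a type and less RNA per cell cannot be told apart.

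Genes whose level ran most like that of Rgs4 over the 16 mice were found among 10985 protein-coding genes by the root mean square difference of centred log2 CPM. They were Atp6v1c1, a subunit of the vacuolar proton pump, at 0.17, Ywhah, a 14-3-3 protein, at 0.21 and Pls3, an actin bundling protein, at 0.23, beside a standard deviation of 0.78 log2 units for Rgs4 itself. The 16 points share their libraries, depth and groups, so this is a description of likeness only.

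Of the called members Rgs4 spans 6.17 kb in 4 exon blocks, Rgs14 15.0 kb, Rgs17 96.7 kb, Rgs20 161 kb and Rgs7 433 kb in 18 blocks. Of those not called, Rgs2 spans 4.82 kb in 4 blocks and Rgs6 574 kb in 24. Inside the 10 genes 16 other features are annotated, of which 4 had enough counts to be tested and 0 were called, the smallest adjusted p by edgeR being 0.0722 for 1700030I03Rik in Rgs6 at 48 h. Counting took no account of strand, and by the tool's default a read on exon bases shared with another gene is assigned to neither. Such sharing touched Rgs6 (77 bases), Rgs8 (70), Rgs12 (467) and Rgs20, and none of the exons of Rgs2, Rgs4, Rgs7, Rgs14 or Rgs17. Between the 2 libraries of a mouse the median difference in log2 CPM was 0.04 for Rgs4, 0.09 for Rgs17, 0.10 for Rgs7, 0.17 for Rgs14 and 0.50 for Rgs20, so the lowest gene was also the one measured least precisely.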

How the data were processed

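The values are raw counts per gene, which the authors deposited for each library. Per the file headers they were made with featureCounts 2.0.0 over exons by Ensembl gene ID (GRCm38 annotation), with no option for strand, overlaps or multi-mapping reads. Per the labels' protocols libraries came from SMART-seq2 cDNA and Nextera XT. The RNA aligner is not given in the sources used here. Of 55401 IDs 55141 were matched to a symbol. H3K27ac samples were not used here.

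Each mouse is the sum of its 2 libraries (chi-square per degree of freedom between them 1.40 to 2.85, so they were separate libraries). Genes were filtered with filterByExpr, scaled with TMM and fitted in 1 edgeR 4.0.16 quasi-likelihood model over 4 groups (limma 3.58.1, DESeq2 1.42.0, R 4.3.3), with a threshold of 0.05 and a prior count of 2. On simulated data for 24 h against vehicle, 163 of 200 genes changed 3-fold were recovered among 17941, with 6 false calls. The simulation gave all genes the same spread and changed only these 200, whereas 24.2% of genes were called in the data. It therefore does not give the error rates of the real comparison. Ratios used scipy 1.17.1 after adding 0.5 to each count. Apart from the age, strain and tissue given above, labels say no more of the mice than group and number. Variation between mice is what the p-values rest on, and edgeR estimates it by sharing information over genes and all 4 groups. No molecular identifiers mark the reads, and detection limits cover only counting error. In the headers 3 mice carry another number than in their labels, and the labels were used. The members and lists were chosen with earlier results of these data known. Named were all members, Rgs9 and other RGS genes called in any comparison, up to 3 called pathway genes with the largest change each way, and the 3 genes most like the member with the smallest p. Rgs5, Rgs16, Rgs19, Gnaq, Gnb5, Gpr158, Rgs7bp and single markers were named after their values were seen.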

Additional observations from a re-analysis of the deposited data

Results flagged for a closer look

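In vehicle mouse 1 Rgs6 stood at 44.7 CPM, apart from the other 3 vehicle mice, of which the nearest had 50.7 CPM. In 7-day mouse 4 Rgs12 stood at 42.1 CPM, below the other 3 mice of that group, of which the nearest had 48.6 CPM. Each gap exceeded the 95% critical value of Dixon's ratio of gap to range for 4 samples. Of 40 groups of 4 mice examined for the 10 genes 2 were so marked, and chance alone marks about 1 in 20.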

How the results depend on the processing

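Rgs4 and Rgs7 kept their direction at 24 h and 48 h under every alternative run, and their calls under all but the fit with the CT010467.1 share as a covariate, where Rgs4 stood at -1.45 and -1.61 and Rgs7 at -0.73 and -0.83. Each number of members called is followed by the share of all genes called in the same fit. Of the 10 members, 5 were called at 24 h (24.2%) and 5 at 48 h (30.1%), 0 in each contrast with 7 days, and 4 in the test of any difference (18.8%). At 24 h the number was 3 from library 2 alone (24.1%), 3 without 24 h mouse 1 and 48 h mouse 1 (18.3%), 2 without the mice whose header carries another number (19.4%), 2 at a threshold of 0.01 (7.83%) and 0 with the covariate (0%). At 48 h it was 3 at 0.01 (11.6%) and 0 with the covariate (0%). For any difference it was 2 without 24 h mouse 1 and 48 h mouse 1 (13.8%), 2 at 0.01 (4.67%) and 0 with the covariate (0%). With the mouse number as a replicate block it was 2 at 24 h (20.4%), 4 at 48 h (26.0%) and 2 for any difference (13.4%), but the numbers share nothing else: over 24 pairs the mean correlation of deviations was -0.036 (-0.282 to 0.244). At 7 days against vehicle 1 member was called by DESeq2 (4.44%), without a filter (2.62%) and at a threshold of 0.1 (1.32%), and 2 by duplicateCorrelation (1.97%). At 7 days against 48 h the number was 1 by DESeq2 (3.15%) and by duplicateCorrelation (7.72%) and 2 without a filter (1.82%), and at 7 days against 24 h it was 1 without a filter (1.38%). Leaving out 1 mouse gave 2 to 3 members for 24 h (13.9% to 21.2% of all genes), 4 to 5 for 48 h (19.0% to 26.4%), 0 to 2 when 7 days was set against vehicle (0% to 7.26%) or against 48 h (0% to 2.37%), and 2 to 4 for any difference (8.0% to 24.3%). The causes of these differences were not tested.

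The following log2 fold changes had the other sign than the values reported, none of which was called at that time. With the covariate Rgs6 was 0.31 at 24 h and 0.49 at 48 h, Rgs10 -0.064 and -0.35, and Rgs8 -0.043 at 7 days. With limma voom Rgs10 was -0.038 and -0.018. Rgs12 at 24 h was -0.042 without a filter, -0.011 from library 2, -0.0093 on thinned counts, -0.026 without 24 h mouse 1 and 48 h mouse 1 and -0.030 without the mice with another header number. At 48 h Rgs2 was 0.057 and Rgs6 0.032 by total counts, and 0.021 and 0.034 from library 2; Rgs10 was -0.00065 from library 1, and without 24 h mouse 1 and 48 h mouse 1 Rgs6 was 0.080 and Rgs10 -0.076. At 7 days Rgs8 was -0.0078 from library 2 and Rgs14 0.081 without the mice with another header number. From library 2 Rgs10 over Rgs12 at 48 h was 0.22. With 1 mouse left out, the 24 h value of Rgs12 ran from -0.097 to 0.083. Such 48 h values ran from -0.13 to 0.087 for Rgs2, from -0.16 to 0.059 for Rgs6, from -0.097 to 0.29 for Rgs10 and from -0.034 to 0.28 for Rgs12, and those of 7 days from -0.076 to 0.12 for Rgs8 and from -0.54 to 0.097 for Rgs14.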
